A study of Mus musculus with 6 samples.

Results

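The genes described here code for the proteins that bind retinoic acid inside the cell (Crabp1, Crabp2), its nuclear receptors (Rara, Rarb, Rarg) and their partners (Rxra, Rxrb), and for an enzyme that breaks it down (Cyp26b1) and one that makes it (Aldh1a2). Of the 9 listed genes, 8 were found by symbol among the 23791 named entries of the count table as used here; Aldh1a2 was not matched and is not analysed here. The members were chosen by name, with measured values of these same 6 libraries in view. Which values were used is not stated, so the differences of the 8 genes are given as a description, and no call among them is read as support.

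Retinoic acid is made from vitamin A (retinol) by oxidation to retinal and then to the acid. In the nucleus it binds a retinoic acid receptor (RAR) paired with a retinoid X receptor (RXR), and the pair sits on direct repeats of a short half-site, where it switches from repressing to activating transcription when the ligand binds. CRABP2 is known to carry retinoic acid to the receptors, while CRABP1 is known to hold it in the cytosol and to favour its breakdown by CYP26 enzymes. Rarb is a widely studied target of its own ligand through a repeat near one of its start sites, and its loss is often reported in carcinomas, those of the prostate included.

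The libraries come from RM1, a C57BL/6 mouse prostate cancer line. Unlabelled RM1 from culture was sequenced as replicates a and b, and so was RM1536, the same line carrying eCFP and luc2 and made by pooling several labelled clones. The bone library and the lung library are RM1536 cells recovered from the femur and the lung of 1 mouse, 16 days after intracardiac injection, and both are of sorted cells negative for the PKH26 dye they had been injected with. Cells of all groups were sorted and then grown in DMEM with 5% serum to 85% of a T75 flask, so the bone and lung values are of cells grown again in vitro, and no agent that acts on the retinoid pathway was named for any group. RM1 and RM1536 differ in the label, the cloning and the pooling at once, and these cannot be told apart. In such bulk samples, a larger share of cells with a transcript and more of it per cell cannot be told apart either.

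Total counts ran from 22763835 to 30303566 per library. Each group of culture has n = 2 and bone and lung have 1 library each, which has no replicate check of its own. Whether a and b are separate cultures is not stated, so the spread between them may be technical in part. Within RM1 and within RM1536 that spread exceeded counting error (chi-square divided by its degrees of freedom, 97.4 and 98.6). Of the prostate and epithelial markers, Krt8 had 966 to 2367 CPM (counts relative to the TMM-scaled library size), while Hoxb13 and Krt5 had 0 reads in all libraries and Epcam at most 1.33 CPM.

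The 300 bases around a start site are printed for 2 genes, the one with the most reads and the one that holds a receptor repeat. They are RefSeq sequences of GRCm38.p6 from 250 bases before to 50 bases after the start. Of the 8 genes, 7 matched an entry, all but Crabp2. Sequence outside these windows was not searched. The search was for half-sites AGGTCA (the canonical form), GGGTCA (varied at the first base), AGTTCA (at the third) or GGTTCA (at both) on either strand, alone or as direct repeats with a spacer of 1, 2 or 5 bases; a repeat also counts as 2 half-sites. Capitals mark a repeat.
Crabp1, chr9:54764498-54764797, plus strand: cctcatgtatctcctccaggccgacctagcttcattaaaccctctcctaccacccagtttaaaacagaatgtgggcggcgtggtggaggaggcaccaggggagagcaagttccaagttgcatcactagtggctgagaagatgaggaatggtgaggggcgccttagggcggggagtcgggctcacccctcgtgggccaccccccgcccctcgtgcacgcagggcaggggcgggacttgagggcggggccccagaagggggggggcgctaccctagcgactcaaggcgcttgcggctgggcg
Rarb, chr14:16575427-16575726, minus strand: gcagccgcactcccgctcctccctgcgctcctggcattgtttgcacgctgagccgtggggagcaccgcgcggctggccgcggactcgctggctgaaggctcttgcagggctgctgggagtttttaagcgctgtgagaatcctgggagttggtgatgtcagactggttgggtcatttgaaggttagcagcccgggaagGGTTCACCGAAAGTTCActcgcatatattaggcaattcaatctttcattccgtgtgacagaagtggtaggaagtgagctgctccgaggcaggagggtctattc

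The Rarb window holds 1 repeat with a spacer of 5, whose first base lies 53 bases before the start. A repeat with that spacer is found in 32 of the 32851 promoter windows of the table, or 0.0974%, and with spacers of 1 and 2 in 0.222% and 0.268%. The Crabp1 window holds no half-site, while 43.7% of all windows hold at least 1. It has a GC content of 65.0% and 17 CpG pairs, against medians of 52.7% and 7 over all windows. None of the other windows, which belong to Rara, Rarg, Rxra, Rxrb and Cyp26b1, holds a repeat of these 3 spacings. These matches are of letters only, and binding was not measured.

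Both binding-protein genes were low in unlabelled RM1 and far higher in RM1536. Crabp1 (chromosome 9, 54764748 to 54773110, GRCm38), which codes for the protein that keeps retinoic acid in the cytosol, had 7.62 CPM in RM1 a and 14.6 in RM1 b. It had 1114 CPM for RM1536 a, 1221 for b, 1210.0 for bone and 1193 in lung. All 4 labelled libraries lay within a narrow band and far above both RM1 libraries, with no overlap. The log2 difference of RM1536 against RM1 was 6.71 ± 0.42 (SE, n = 2 and 2), or 105-fold. Scaled to its 802 bases of exon, Crabp1 was between the 13th and the 17th highest of 23065 genes in each labelled library, and 4643rd and 2821st in RM1 a and b.

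Crabp2 (chromosome 3, 87948666 to 87953376), which codes for the protein that delivers retinoic acid to its receptors, had 9 reads in RM1 a and 12 in RM1 b, or 0.301 and 0.425 CPM. It had 24.7 and 22.6 CPM for RM1536, 42.2 for bone and 38.3 for lung. The labelled libraries again did not overlap with RM1, and the bone and lung libraries were both above the RM1536 duplicates. The log2 difference of RM1536 against RM1 was 6.01 ± 0.31 (SE, n = 2 and 2), or 64.7-fold. From the read totals alone, 1314 against 21, the ratio was 65.3 with an exact 95% counting interval of 42.5 to 106. Such intervals cover counting error only.

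Per kb of exon, Crabp1 stayed far above Crabp2 in every library. The ratio of Crabp1 to Crabp2 in CPM per kb was 41.8 and 56.7 for RM1, 74.2 and 89.0 for RM1536, 47.3 for bone and 51.4 for lung. Crabp1 thus made up 97.7% to 98.9% of the summed level of the pair. The same sum was 0.267 and 0.430 times that of the 3 RAR genes in RM1 a and b, and 34.5 and 37.4 times in RM1536, 33.5 in bone and 19.6 in lung. RM1 was the group in which RAR transcripts exceeded those of the binding proteins.

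**Figure D1:**
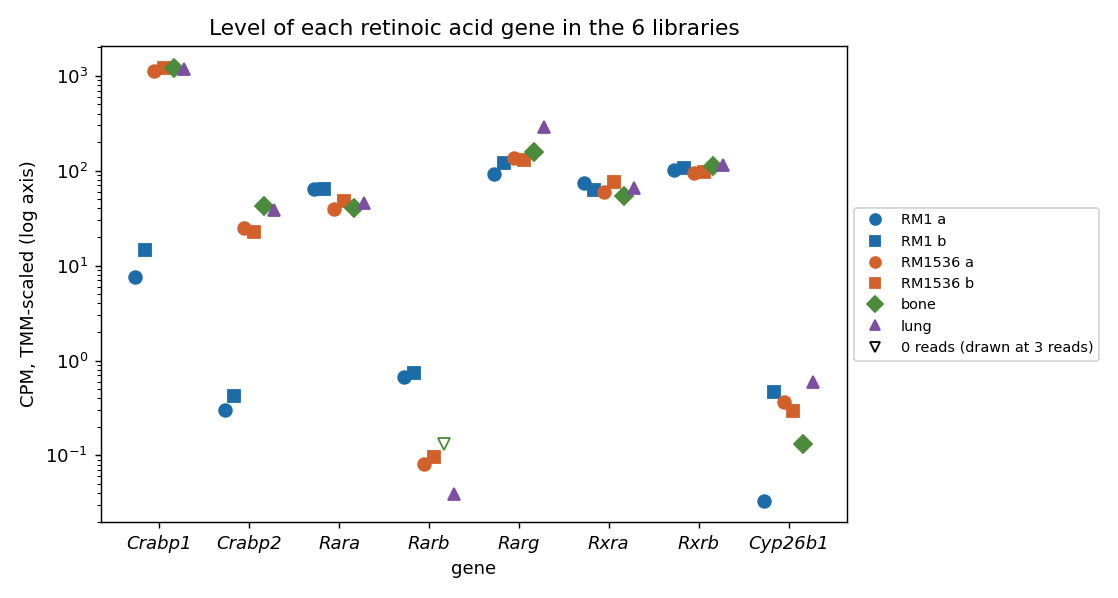
TMM-scaled CPM (log axis) of the 8 genes in each of the 6 libraries, 1 point per library; an open triangle stands for 0 reads and is drawn at the level of 3 reads. Crabp1 and Crabp2 stand apart in RM1 (7.62 and 14.6 CPM, and 0.301 and 0.425 CPM), while Rara, Rarg, Rxra and Rxrb lie between 39.6 and 285 CPM in all libraries.

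Among all 13832 genes tested, the edgeR quasi-likelihood test with Benjamini-Hochberg (BH) adjustment called 5.64% at 0.05 in RM1536 against RM1, 2.1% higher and 3.54% lower. Crabp1 and Crabp2 were the 2 of the 8 retinoic acid genes called higher, and 0 were called lower; the rule used these same libraries, so nothing is read from that count. The median log2 difference of the 8 was 0.14, against 0.02 over all genes tested. The duplicates did not overlap for 6 of the 8, with 3 higher in RM1536 (Crabp1, Crabp2, Rarg) and 3 lower (Rara, Rarb, Rxrb). Over all genes tested 27.2% were higher and 26.9% lower without overlap, so such a split by itself sets few genes apart.

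The genes next to Crabp1 and Crabp2 had no such increase. Wdr61 lies 30.2 kb before Crabp1 and had a log2 difference of 0.35 ± 0.19, and Ireb2, which codes for an iron-regulatory protein, lies 90.7 kb after it and had 0.11 ± 0.21. Neither was called (edgeR adjusted p = 0.327 and 0.804). Beside Crabp2, Isg20l2 had -0.13 ± 0.19 (edgeR adjusted p = 0.738), while Nes, the gene of the intermediate filament protein nestin, lies 17.7 kb after it and fell by 1.78 ± 0.24 on the log2 scale (edgeR adjusted p = 0.0185).

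Of the other genes tested, Lox, Dkk2 and Plac8 had the profiles nearest to that of Crabp1 over the 6 libraries. The measure was the root mean square difference between profiles of log2(CPM + 0.5), each centred on its own mean, and it was 0.66 for Lox, 0.68 for Dkk2 and 0.81 for Plac8; Crabp2 came 4th of 13831 with 0.82. For Crabp2 the nearest were Plac8 at 0.11, Lox at 0.45 and Kcnab1 at 0.45. Lox, which codes for the enzyme that cross-links collagen, had 1.20 and 0.779 CPM for RM1, 49.1 and 89.6 for RM1536, 97.5 for bone and 98.1 for lung. Plac8 had 0.401 and 0.814 CPM for RM1, 30.0 and 29.3 for RM1536, 49.1 for bone and 44.9 for lung, so it repeats the Crabp2 pattern of higher values in bone and lung than in both RM1536 duplicates. With 6 libraries in 4 groups, this likeness describes mainly the step between RM1 and the rest. No other member spanned 2 or more on that scale, so none was compared in this way.

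**Figure D2:**
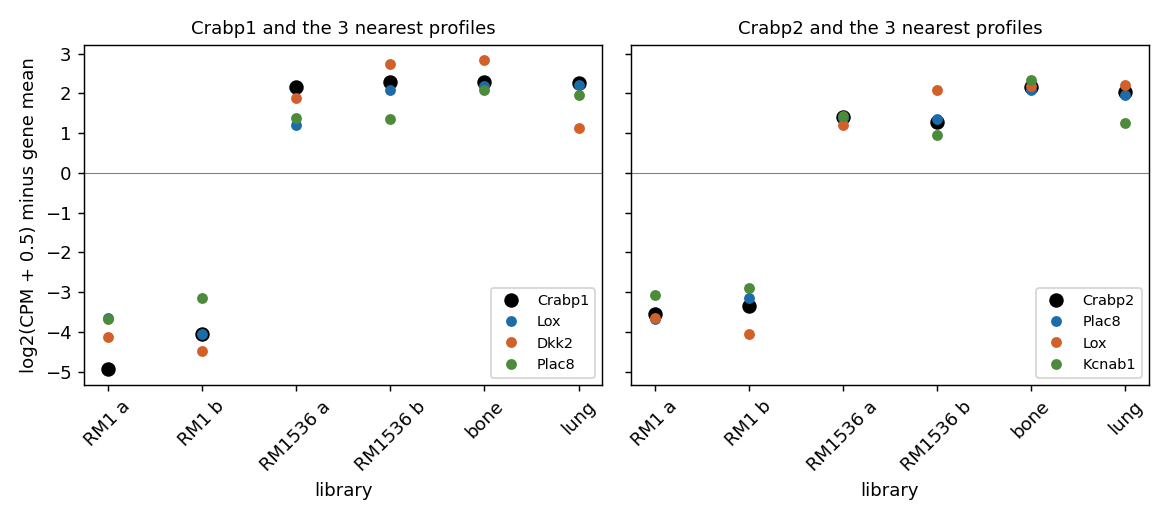
Log2(CPM + 0.5) minus the gene's mean over the 6 libraries, for Crabp1 (left) and Crabp2 (right) in black and the 3 tested genes with the nearest profiles in colour, 1 point per library. All 4 genes of each panel lie below 0 in both RM1 libraries and above 0 in the other 4; Plac8 and Crabp2 differ by a root mean square of 0.11.

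Markers of other cell types were examined beside these values. The summed level of 7 osteoblast and osteoclast markers was 48.3 and 50.1 CPM for RM1, 53.9 and 59.6 for RM1536, 86.0 for bone and 82.7 for lung, most of it Runx2 in every library. Ctsk, the osteoclast protease gene of that list, had 0.0668 and 0.0708 CPM for RM1, 2.29 and 0.615 for RM1536, 6.28 for bone and 13.1 for lung, while Bglap and Sp7 had at most 0.220 and 0.0647 CPM. The 6 lung epithelial markers summed to 1.40 and 1.59 CPM for RM1, 4.06 and 2.59 for RM1536, 9.22 for bone and 5.72 for lung; Hopx was most of the sum in RM1536, bone and lung, and not in RM1, where it had 0.568 and 0.496 CPM and Ager 0.501 and 0.637. Sftpc and Scgb1a1 had at most 0.0439 CPM. The 6 endothelial markers summed to 1.84 and 3.75 CPM for RM1, 4.71 and 2.17 for RM1536, 9.27 for bone and 9.28 for lung. Tie1 had 0.935 and 1.70 CPM for RM1, 3.14 and 1.46 for RM1536, 6.68 for bone and 3.20 for lung. Vwf had at most 0.991 CPM in the cultures, 1.23 in bone and 4.90 in lung. Pecam1 had at most 0.362 CPM in the cultures, 1.27 in bone and 0.987 in lung. Cdh5 and Kdr went the other way and were highest in RM1 b, with 0.637 and 0.389 CPM, and Tek had at most 0.121 CPM. All 3 sums were highest in the recovered cells, and the first 2 were lowest in both RM1 libraries. Krt19, an epithelial keratin gene, was high where Crabp1 and Crabp2 were low, with 310 and 307 CPM in RM1 and from 7.25 to 19.5 elsewhere. The part of these markers in the Crabp1 and Crabp2 values was not tested. The 7 leukocyte markers summed to 9.72 and 43.6 CPM for RM1, 11.3 and 3.66 for RM1536, 22.9 for bone and 23.4 for lung. Most of this was Cd68 in every library, which was highest in RM1 b (43.5 CPM), with 19.7 in bone and 20.2 in lung. Ptprc had 0 reads in bone and lung, and Lyz2 had 2.68 and 2.88 CPM there and 0 reads in the cultures. The fibroblast markers, all 8 of which had reads, summed to between 630 and 1411 CPM with RM1 at both ends. Col3a1 was most of that sum except in lung, where it had 413 CPM and Col1a1 604. Col1a1 had 17.4 and 18.2 CPM for RM1, 8.85 and 27.8 for RM1536 and 0.791 for bone. Pdgfra was also highest in lung (28.3 CPM). Dcn was highest in RM1536 a (57.9 CPM), and Pdgfrb and Dpt in RM1536 b (59.5 and 51.0 CPM).

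The receptor genes differed far less between the libraries than the binding-protein genes, except for Rarb at very low counts. Rarg (chromosome 15, 102234938 to 102257517), the RAR gene best known from skin and cartilage, had 92.5 CPM for RM1 a, 120.3 for b, 135 and 128 for RM1536, 156 for bone and 285 for lung. The lung library was the highest by a wide margin, and both RM1 libraries were below all others. The log2 difference was 0.31 ± 0.22 in RM1536 against RM1 (SE, n = 2 and 2), with 0.10 without RM1 a and 0.51 without RM1 b. Its neighbours Itgb7, an integrin subunit gene 2.99 kb away, and Mfsd5 had -0.04 ± 0.41 and 0.46 ± 0.19 (edgeR adjusted p = 0.972 and 0.226).

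Rara (chromosome 11, 98927818 to 98974942), the most broadly expressed RAR gene in general, had 63.7 and 64.5 CPM for RM1, 39.6 and 48.5 for RM1536, 40.7 for bone and 45.2 for lung. Both RM1 libraries were above the other 4, with a log2 difference of -0.54 ± 0.21 for RM1536 against RM1 (SE, n = 2 and 2). Its neighbours Cdc6 and Top2a, which code for proteins of replication and chromosome untangling, had 1.37 ± 0.54 and 0.72 ± 0.36, in the other direction, and neither was called (edgeR adjusted p = 0.208 and 0.297).

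Rarb (chromosome 14, 16430839 to 16819156), the RAR gene whose window is printed above, was barely detected. It had 20 and 21 reads in RM1 (0.668 and 0.743 CPM), 2 and 3 in RM1536 (0.0805 and 0.0971 CPM), 0 in bone and 1 in lung. Every RM1 value was above every other value. The reads of RM1536 against RM1 gave a ratio of 0.127, with an exact 95% counting interval of 0.0393 to 0.322, and the fit gave -2.92 ± 0.71 on the log2 scale (SE, n = 2 and 2; edgeR adjusted p = 0.0755). Without the filter on low counts the adjusted p was 0.0171, and with the 4 culture libraries alone 0.0462, so Rarb passed the threshold there, while under the other planned settings that kept it the adjusted p was from 0.0736 to 0.280. A count of 0 in bone allows up to 0.132 CPM (3 reads), so against that floor bone was at least 5.35-fold lower than RM1; the exact 95% counting interval of the ratio, which also covers the error of RM1, reaches up to 0.241. No difference between bone, lung and RM1536 was detectable at this depth. Of the 5265 exon bases annotated for Rarb, 1793 are shared with exons of Top2b on the opposite strand, and the strand setting of the counting is not given in the sources used here, so its level is uncertain; Top2b had 19175 reads over the 6 libraries. The nearest tested genes, Ngly1 and Thrb, had -0.97 ± 0.26 and 1.13 ± 0.28 (edgeR adjusted p = 0.0915 and 0.0788).

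Per kb of exon, Rarg and Rara accounted for nearly all RAR transcripts, and the balance differed between the libraries. Rarg made up 59.6% and 65.4% of the summed RAR level for RM1, 77.7% and 73.0% for RM1536, 79.7% for bone and 86.6% for lung. Rara made up the rest, from 40.1% in RM1 a down to 13.4% in lung, and Rarb at most 0.348%. The order of the Rarg shares was lung, bone, RM1536 and RM1, with no overlap of the RM1 and RM1536 duplicates; bone was nearer to RM1536 a than the RM1536 duplicates were to each other. The summed RAR level was 36.4 and 43.2 CPM per kb for RM1, 40.8 and 41.2 for RM1536, 46.0 for bone and 77.4 for lung. These shares use all annotated exon bases, which can exceed the length of the transcripts made.

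**Figure D3:**
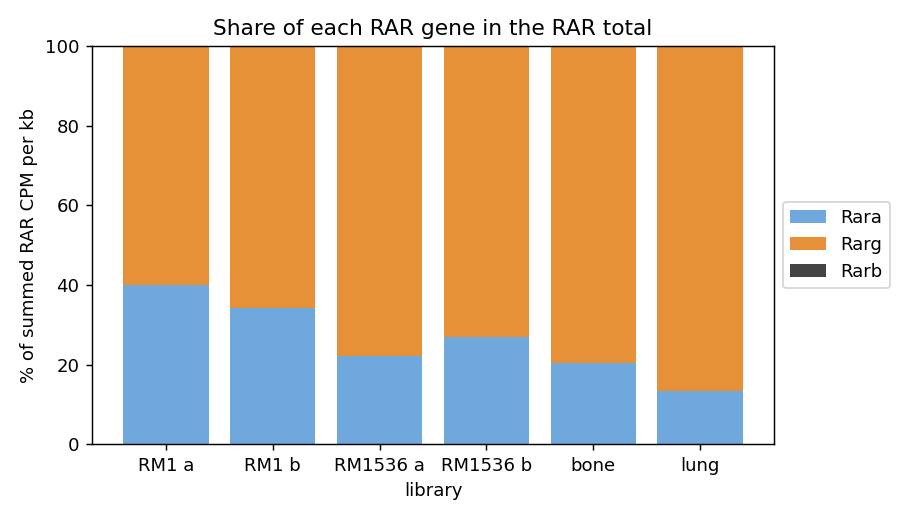
Share of Rara, Rarb and Rarg in the summed CPM per kb of exon of the 3 genes (vertical axis, percent), 1 bar per library. The Rarg share runs from 59.6% in RM1 a to 86.6% in lung, and Rarb is too small to see at 0.348% or less.

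Rxra (chromosome 2, 27676440 to 27762957) and Rxrb (chromosome 17, 34031812 to 34038399) code for the partners that RARs need to bind DNA, and they also serve other nuclear receptors. Rxra had 75.0 and 63.1 CPM for RM1, 59.7 and 76.6 for RM1536, 54.5 for bone and 65.8 for lung. Its RM1 and RM1536 values overlapped, and the log2 difference was -0.02 ± 0.23 (SE, n = 2 and 2). Its nearest tested neighbours, the noncoding Gm13421 and 2810430I11Rik, had at most 1.38 and 0.534 CPM. Rxrb had 101 and 106 CPM for RM1, 93.9 and 97.4 for RM1536, 113 for bone and 114 for lung, the narrowest span of the 8 genes on the log2(CPM + 0.5) scale (0.28). Its log2 difference was -0.11 ± 0.19. Rxrb lies among genes of the major histocompatibility region; its neighbours Slc39a7 and Col11a2 had log2 differences of 0.09 ± 0.33 and -1.43 ± 0.49 (edgeR adjusted p = 0.907 and 0.160). Per kb, Rxrb made up 63.6% to 74.0% of the pair, and the summed level of the pair lay between 34.6 and 40.9 CPM per kb in all libraries.

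Cyp26b1 (chromosome 6, 84571414 to 84593908), which codes for an enzyme that clears retinoic acid, had 1 read in RM1 a, 13 in RM1 b, 9 in each of RM1536 a and b, 3 in bone and 15 in lung. The highest value was 0.592 CPM, in lung, and the RM1 duplicates alone spanned most of the range. The log2 difference of RM1536 against RM1 was 0.41 ± 1.04; it was 3.11 without RM1 b and -0.53 without RM1 a. Of its neighbours, Dysf had 40.9 and 43.4 CPM for RM1 and 22.4 and 19.9 for RM1536, and Exoc6b had a log2 difference of -0.25 ± 0.22 (edgeR adjusted p = 0.0512 and 0.557). Against RM1536, the reads of bone and of lung gave counting intervals that include 1, while lung against RM1 gave a ratio of 2.46 with an exact 95% interval of 1.11 to 5.50, which covers counting error only; no difference was called by the fit.

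The cells recovered from bone and lung had Crabp1 levels close to those of RM1536 and Crabp2 values above both of its duplicates. Against RM1536, Crabp1 had a log2 difference of 0.05 ± 0.40 in bone and 0.03 ± 0.40 in lung, and Crabp2 of 0.83 ± 0.27 and 0.69 ± 0.27. These 2 comparisons share the RM1536 duplicates. An SE of 0.40 leaves room for changes in Crabp1 well over the small differences seen. Rarg had 0.25 ± 0.26 in bone and 1.12 ± 0.26 in lung, or 2.17-fold in lung, and the lung value was outside the range of the other 5 libraries.

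Rara had -0.11 ± 0.26 in bone and 0.04 ± 0.25 in lung, Rxra -0.32 ± 0.28 and -0.05 ± 0.28, and Rxrb 0.24 ± 0.23 and 0.26 ± 0.23. None of these differences was much larger than its SE. By the edgeR test 0 of the 8 genes were called in bone or in lung, where 0.0145% and 0% of all genes tested were called. At an unadjusted p under 0.05, edgeR had 1 of the 8 in bone (Crabp2) and 2 in lung (Crabp2, Rarg), against 9.92% and 13.8% of all genes tested. DESeq2 called 0 in bone and 1 in lung, Rarg, beside 369 and 356 of all genes.

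In bone against lung, Rarg was lower in bone and the binding-protein genes were close. The log2 difference of bone against lung was -0.87 ± 0.31 for Rarg, 0.02 ± 0.46 for Crabp1 and 0.14 ± 0.32 for Crabp2, with 1 library on each side and the spread taken from the culture duplicates. The edgeR test called 0 of the 8 genes, beside 0.00723% of all genes tested, and DESeq2 called 0, beside 213 of all genes. By edgeR, 1 had an unadjusted p under 0.05 (Rarg), against 8.47% of all genes tested. The neighbours of Rarg went the same way. Itgb7 had -0.95 ± 0.59 in the same comparison, with 1.71 ± 0.49 in lung against RM1536. Mfsd5 had -0.69 ± 0.27, with 0.55 ± 0.23 in lung against RM1536. Why they did so was not tested.

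**Figure D4:**
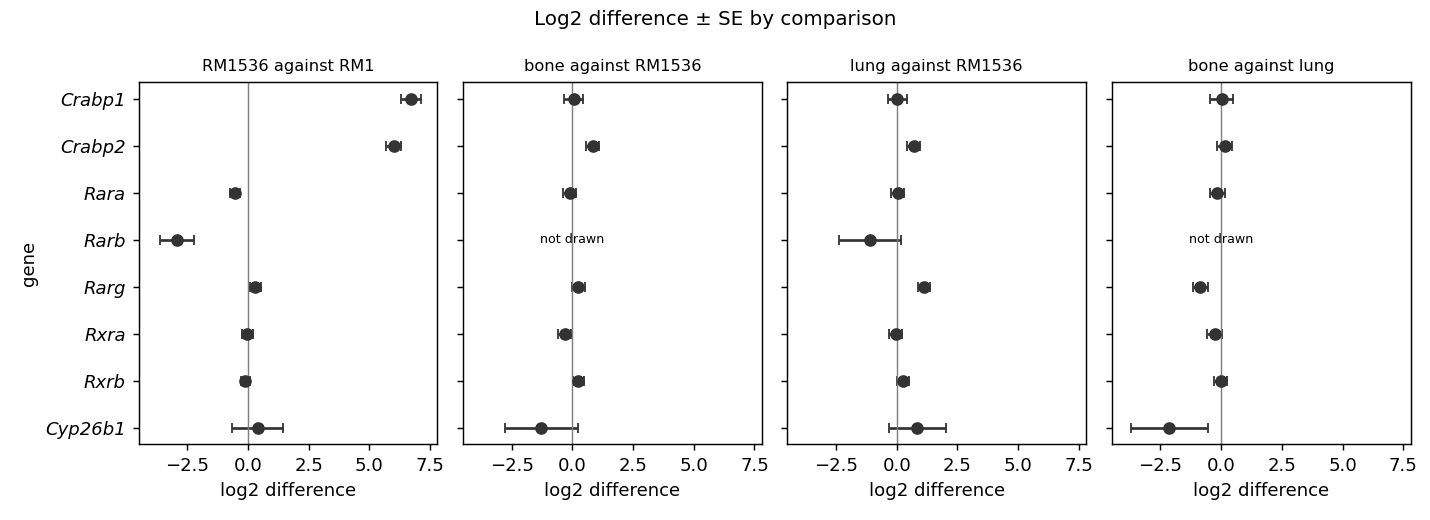
Log2 difference (horizontal axis) with its SE (bars) for the 8 genes in the 4 comparisons, from the edgeR fit over all genes. Rarb is not drawn where bone, with 0 reads, is compared. Crabp1 and Crabp2 lie at 6.71 and 6.01 in RM1536 against RM1, and the points of Rara, Rarg, Rxra and Rxrb lie between -0.87 (Rarg, bone against lung) and 1.12 (Rarg, lung against RM1536).

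Of 98 other symbols of the retinoid pathway, 84 are entries of the table and 66 had enough reads to be tested. In RM1536 against RM1, 0 rose and 3 fell, beside the 2.1% and 3.54% of all genes tested, and the median log2 difference was 0.01 against 0.02. In the other 3 comparisons edgeR called 0 of the 66, and at an unadjusted p under 0.05 there were 10 in bone against RM1536, 12 in lung against RM1536 and 7 in bone against lung, where the shares over all genes tested were 9.92%, 13.8% and 8.47%. DESeq2 called 1, 4 and 1 of them, and 369, 356 and 213 of all genes.

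For uptake and storage of retinol, 0 of 7 tested genes were called in RM1536 against RM1, and the median log2 difference was 0.52. Lrp1, a large endocytic receptor and the most abundant of them, had 1278 and 1243 CPM for RM1 and 1525 and 2685 for RM1536 (0.74 ± 0.31, edgeR adjusted p = 0.224). Stra6, named after its values were seen, codes for the receptor that takes up retinol from its carrier and is known as a gene raised by retinoic acid. It had 3.74 CPM for RM1 a, 19.7 for b, 60.6 and 121 for RM1536, 134 for bone and 147 for lung. The RM1 libraries were below the other 4, but the duplicates were far apart, and the log2 difference of 2.95 ± 0.78 had an edgeR adjusted p of 0.0907. Of the 7 genes, 5 had a positive log2 difference in RM1536 against RM1 and 2 a negative one. The 2 were Rbp4 (-2.49 ± 0.82, edgeR adjusted p = 0.146) and Rbp2 (-1.26 ± 0.46, edgeR adjusted p = 0.182), also named after their values were seen.

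Among 14 tested genes that convert retinol and retinal, 0 were called and the median was 0.27. Akr1b3, an aldo-keto reductase gene and the most abundant, had 83.0 and 64.9 CPM for RM1 and 95.7 and 191 for RM1536 (edgeR adjusted p = 0.186). Genes listed under synthesis of retinoic acid, other than Aldh1a2, were close to 0 in all libraries. Whether each of them makes it was not tested. Aldh1a1 had at most 2 reads, Aldh1a7 at most 10 and Aldh1a3, the most abundant, between 5 and 19. The other breakdown enzymes were as low, with Cyp26a1 between 0 and 10 reads and Cyp26c1 between 4 and 36. The 1 gene tested for synthesis and the 2 for breakdown were not called.

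Fabp5, which codes for a fatty acid binding protein that can also carry retinoic acid, to the receptor PPAR-delta, had 58.5 and 32.6 CPM for RM1, 69.0 and 132 for RM1536, 97.3 for bone and 29.6 for lung (RM1536 against RM1, 1.14 ± 0.41; edgeR adjusted p = 0.172). Ppard, the gene of that receptor and the most abundant of 10 tested RXR partners, had 136 and 190 CPM for RM1, 106 and 99.9 for RM1536, 131 for bone and 184 for lung (-0.66 ± 0.23; edgeR adjusted p = 0.169). None of the 10 was called, with a median of -0.24. None of 19 corepressor and coactivator genes was called either, with a median of -0.12.

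The 3 genes that fell were all among 17 tested genes often reported to rise with retinoic acid, whose median was 0.13; over all genes tested 3.54% fell, no test of the list was made, and nothing particular to it is read from this count. Zfp703, a transcriptional repressor gene, fell by 1.77 ± 0.21 on the log2 scale (edgeR adjusted p = 0.0146), from 152 and 167 CPM in RM1 to 51.3 and 42.0 in RM1536, with 93.9 in bone and 122 in lung. Btg2, an antiproliferative gene, fell by 1.38 ± 0.26 (edgeR adjusted p = 0.0401), from 19.8 and 25.3 CPM to 9.42 and 7.90. Hoxb4, a homeobox gene, had 30 and 55 reads for RM1, 0 and 1 for RM1536, 0 for bone and 1 for lung (edgeR adjusted p = 0.0300; RM1536 against RM1, ratio 0.0123, exact 95% counting interval 0.000307 to 0.0703). All 3 lost the call when 1 library was left out: Btg2 without any of the 4 culture libraries (adjusted p from 0.0666 to 0.155), Zfp703 without RM1536 b (0.0611), and Hoxb4 without RM1 b, RM1536 a or RM1536 b (0.0623 to 0.101). The log2 differences in those fits were from -1.58 to -1.20 for Btg2, -1.66 for Zfp703 and from -8.29 to -5.35 for Hoxb4. With the replicate letter as a block, Zfp703 (0.0506) and Btg2 (0.129) lost it as well.

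Rai14, the most abundant gene of that list, had 152 and 212 CPM for RM1, 219 and 179 for RM1536, 215 for bone and 430 for lung; its lung value was the highest of the 6, as for Rarg, and its log2 difference in lung against RM1536 was 1.11 ± 0.29 (edgeR adjusted p = 0.303). Dhrs3, named after its values were seen, codes for a retinal reductase raised by retinoic acid. It had 3.98 and 3.29 CPM for RM1, 25.7 and 3.53 for RM1536, 37.9 for bone and 37.4 for lung, so the RM1536 duplicates were far apart and RM1536 b lay between the RM1 libraries. Gprc5a, also named after its values were seen, went the other way in RM1536 against RM1 (-1.70 ± 0.37, edgeR adjusted p = 0.0568). Of the 17 tested genes often reported to rise with retinoic acid, 10 had a positive log2 difference there and 7 a negative one.

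**Figure D5:**
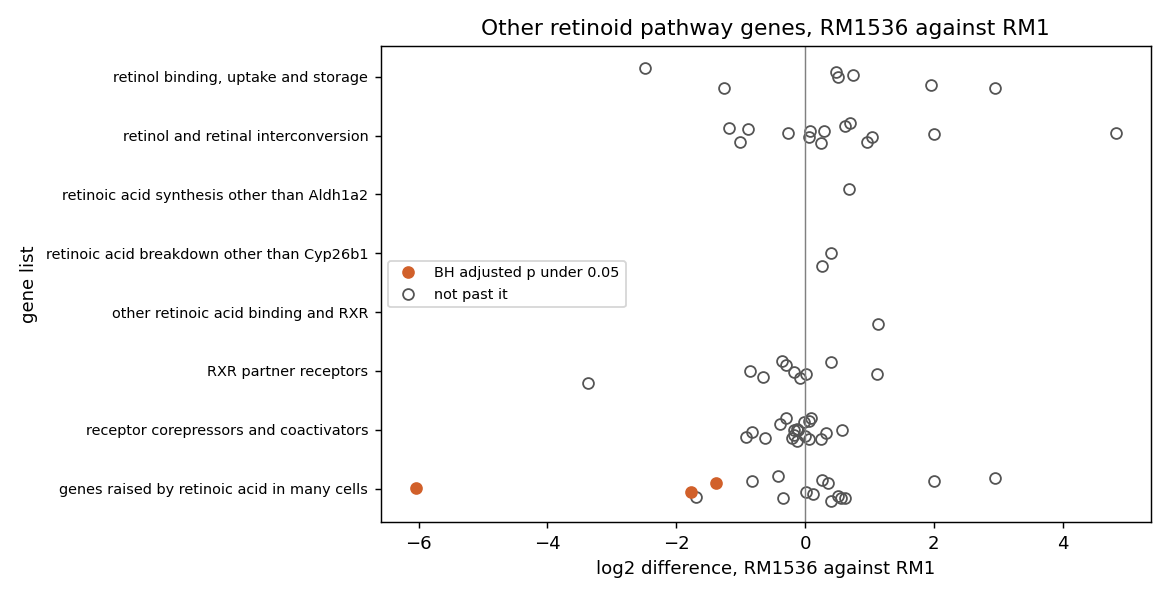
Log2 difference of RM1536 against RM1 (horizontal axis) for the tested genes of 8 retinoid pathway lists (rows), 1 point per gene with a random vertical offset; a gene in more than 1 list is drawn in each. The 3 filled points, Hoxb4, Zfp703 and Btg2, are those past the BH threshold, and all are to the left of 0.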

How the data were processed

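The authors deposited 1 table of raw counts per gene symbol for the 6 libraries. For the upstream steps, GRCm38, HTSeq, TopHat2 2.1.10 and edgeR are listed in the submitters' processing notes with no roles, and neither annotation release nor strand setting is given in the sources used here. An entry with a blank name (at most 0.00830% of a library's counts) was left out. Counts were fitted in R 4.3.3 with edgeR 4.0.16 (TMM, filterByExpr, quasi-likelihood test, 4 groups, all 6 libraries), with BH adjustment over 13832 genes and a threshold of 0.05. SEs are the log2 difference over the square root of F. The spread comes from the culture duplicates (2 residual degrees of freedom), which bone and lung are assumed to share. The fit draws each gene's spread towards the trend over all genes tested, with 4.03 prior degrees of freedom. The SEs and p-values thus rest in part on the duplicates of other genes. CPM values use TMM-scaled library sizes, and exon lengths, positions and neighbours are from GENCODE M21 (GRCm38). Depth limits low genes: 3 counts equal 0.0990 to 0.132 CPM of total counts.

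The members and lists were chosen with earlier results of these data known. Named genes are the members, pathway genes called in any comparison, the most abundant gene of each list, the 3 nearest profiles of members spanning at least 2 (log2), and the nearest tested gene on each side; 1 gene this rule names is not reported here. Alternatives were DESeq2 1.42.0, RLE factors, no filter or a stricter one (1 CPM in 2 libraries), leaving out each culture library, the 4 culture libraries alone, and the replicate block. The letters a and b were not shown to pair the groups: the a minus b differences of RM1 and RM1536 correlated at -0.37 over genes.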

Additional observations from a re-analysis of the deposited data

Results flagged for a closer look

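Cyp26b1 was above both RM1536 duplicates in lung and below both in bone, with 15 and 3 reads against 9 and 9. The log2 difference of bone against lung was -2.13 ± 1.59, and the edgeR adjusted p was 0.726, so the test of the difference did not pass. From the reads alone the ratio was 0.223, with an exact 95% counting interval of 0.0413 to 0.787. That interval covers counting error only, and the RM1 duplicates alone had 1 and 13 reads.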

How the results depend on the processing

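Crabp1 and Crabp2 were past the threshold in RM1536 against RM1 under all 11 alternatives run, with log2 differences from 6.29 to 7.26 and from 5.75 to 6.28. The count of called members there, 2 in the text, was 3 without a filter and 3 with the 4 culture libraries alone (Rarb was added), 4 with crossed letters, an alternative chosen after seeing the data (Rarb and Rara were added), and in lung against RM1536 from 0 to 1 without a filter and to 1 with DESeq2. The count of called pathway genes in RM1536 against RM1, 3 in the text, was 17 without a filter, 7 with DESeq2, 2 with the replicate block and 19 with crossed letters, and ran from 1 to 3 when 1 culture library was left out (1 without RM1536 b). In bone against RM1536, where it was 0, it was 7 without a filter, 1 with DESeq2 and from 0 to 1 with a library left out (1 without RM1 b). In lung against RM1536 it went from 0 to 10 without a filter and 4 with DESeq2, and in bone against lung from 0 to 5 and 1. Over all genes the calls in RM1536 against RM1 were 780, but 1466 with DESeq2, 2394 without a filter, 295 with the replicate block, 3165 with crossed letters and 196 to 513 with a library left out. In bone against RM1536 the 2 calls became 369 with DESeq2, 859 without a filter, 32 without RM1 a and 128 without RM1 b. In lung the 0 became 356 with DESeq2, 1299 without a filter and 7 without RM1 b, and in bone against lung the 1 became 213, 754 and 32. The causes were not tested. Of 272 values of the members under alternatives, 246 moved by less than the spread between duplicates.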
